A study of Mus musculus with 6 samples.

Results

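The genes described here encode the nuclear receptors for thyroid hormone (Thra and Thrb), the retinoid X receptors (Rxra, Rxrb and Rxrg), the retinoic acid receptors (Rara, Rarb and Rarg), and Hairless (Hr), a corepressor that binds thyroid hormone receptors. They were chosen by gene symbol, and all 9 were found among the 17891 genes listed in at least 1 sample. Their transcripts were 19 of 25349 listed transcript models. RNA was sequenced from the myocardium of C57BL/6 mice aged 6 weeks, in 3 NS-DADm samples and 3 wild type (WT) samples. The NS-DADm genotype is a knock-in, throughout the body, of mutations in the deacetylase activating domains (DADs) of the corepressor NCOR, encoded by Ncor1, and of a related corepressor, and WT mice carry none of them. Because every cell type of the NS-DADm animal is mutant, a difference arising in heart muscle cells cannot be told apart from one arising in other cells or organs. In bulk RNA, likewise, more or fewer cells of a type and more or less RNA per cell cannot be told apart. The labels number the replicates but name no animals, and the spread that p-values are set against may therefore be technical.

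Thyroid hormone receptors sit on DNA mostly as heterodimers with a retinoid X receptor. Without the active hormone, triiodothyronine (T3), they hold corepressors such as NCOR, whose DAD binds and switches on the histone deacetylase HDAC3; T3 exchanges these corepressors for coactivators. Retinoic acid receptors work in the same way with retinoic acid as the ligand. In the rodent heart T3 raises the fast myosin heavy chain Myh6 and lowers the slow one, Myh7. Hr itself is a classic gene induced by T3, best known from the brain, and its protein helps unliganded receptors to repress.

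Expression values are FPKM, the authors' counts scaled by transcript length and library size, so that levels can be compared between genes. Total expected counts were 12262523 to 12758311 in NS-DADm libraries and 10183792 to 11205221 in WT libraries. The 5 cardiomyocyte markers (Myh6, Tnnt2, Tnni3, Actc1 and Ryr2) summed to 30790 to 33832 FPKM in NS-DADm and 30778 to 32526 FPKM in WT samples, so the defining markers of the labelled tissue were abundant. Atrial transcripts split the libraries across the groups: the mean log2 CPM of Myl7, Myl4, Sln, Nppa and Bmp10 was 8.19, 4.08 and 8.83 in NS-DADm 1, 2 and 3, against 3.68, 2.17 and 8.35 in WT 1, 2 and 3. NS-DADm 1, NS-DADm 3 and WT 3 were thus high, and NS-DADm 2, WT 1 and WT 2 low, with Bmp10 at 0 in the low libraries. The level of Ncor1 (24.3 ± 1.01 FPKM in NS-DADm against 22.9 ± 1.15 FPKM in WT, SD, n = 3 each) gave an adjusted p of 0.432 in edgeR; RNA amount does not check mutations that alter the protein.

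All 9 genes passed the filter on low counts. Hr rose in NS-DADm myocardium, no gene of the set fell, and the 8 receptors were not called. A gene is called when its p in edgeR's quasi-likelihood test, adjusted by the Benjamini-Hochberg method over all 13130 tested genes, is under 0.05; 420 genes, or 3.2% of those tested, were called, 235 of them (1.79%) upward and 185 (1.41%) downward. That total was 149 without WT 1, 117 without WT 2, 181 without NS-DADm 1 and 273 without NS-DADm 2. Fold changes are NS-DADm over WT. They were positive for 7 of the 9 genes and negative for Thra and Thrb, with a median log2 fold change of 0.15, while 49.3% of all tested genes had positive fold changes and their median was -0.003. Sample ranges of FPKM were separate for 4 of the 9 genes (Hr, Rara, Rarb and Thra) and for 23.4% of all tested genes; in 3 of these 4, Thra being the exception, NS-DADm was above WT, as in 8.94% of all tested genes. An unadjusted p under 0.05 was found for 3 of the 9 (Hr, Rara and Rarb) and for 18.1% of all tested genes. At the level of transcripts none of the 19 models was called by edgeR, against 0.0972% of 17498 tested, 1 model (that of Hr) had an unadjusted p under 0.05, and limma on log2(FPKM + 1) likewise called none.

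**Figure D1:**
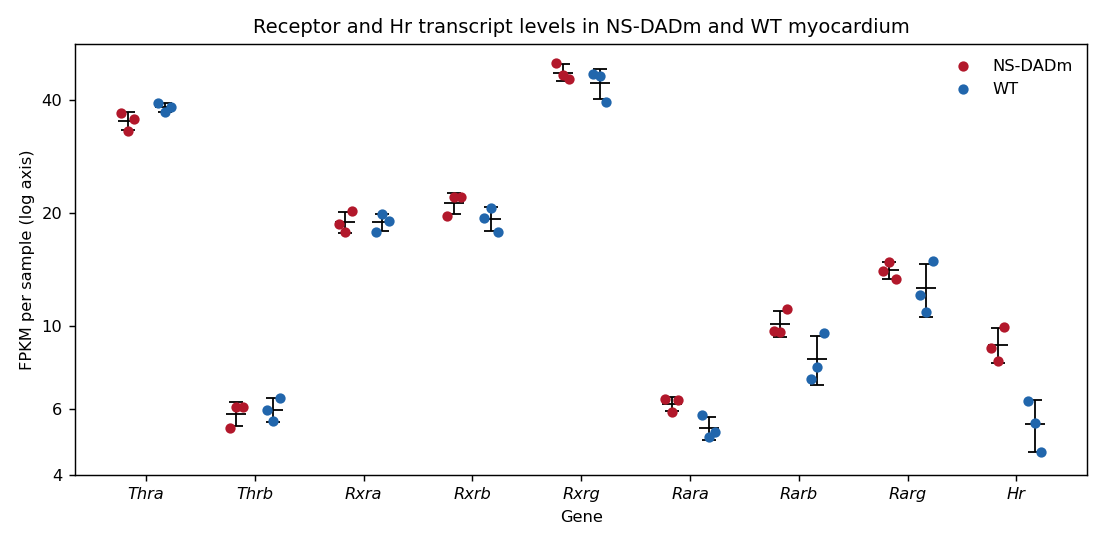
FPKM of the 9 genes in each sample, on a log axis, with NS-DADm samples (red) left of WT samples (blue); black marks are the mean and SD of 3 samples. The groups stand clear of each other for Hr (8.07 to 9.92 FPKM in NS-DADm against 4.59 to 6.30 FPKM in WT) and narrowly for Rara, Rarb and Thra.

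Hr (gene ID 15460) was the gene that rose. It had 8.71, 8.07 and 9.92 FPKM in NS-DADm 1, 2 and 3, against 6.30, 5.49 and 4.59 FPKM in WT 1, 2 and 3. The lowest NS-DADm sample lay above the highest WT sample, and both groups spread over a similar range. The means were 8.90 ± 0.94 FPKM in NS-DADm and 5.46 ± 0.855 FPKM in WT (SD, n = 3 each). The log2 fold change was 0.73 (SE 0.12, 95% interval 0.46 to 0.99), a 1.65-fold rise, with an adjusted p of 0.0117 (edgeR). The counts behind these values were 587, 560 and 662 in NS-DADm and 369, 304 and 280 in WT libraries. All of them belonged to 1 transcript model, NM_021877, which the GENCODE M21 annotation translates into 1182 residues.

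The call of Hr depended on 1 library. Without WT 2 the fold change was about the same (log2 0.74) but the adjusted p was 0.0593, and leaving out the other libraries in turn kept the call, with log2 fold changes of 0.61 to 0.84 over the 6 such fits. Among the low-atrial libraries Hr stood at 8.07 FPKM in the single NS-DADm sample and averaged 5.90 FPKM in the 2 WT samples, a log2 ratio of 0.45. Among the high-atrial libraries it averaged 9.32 FPKM in 2 NS-DADm samples and was 4.59 FPKM in the single WT sample, a log2 ratio of 1.02. The direction was therefore the same in both sets; the fit within the high-atrial libraries called no gene at all (Hr adjusted p = 0.59). With the atrial score as a covariate the log2 fold change of Hr was 0.76 (adjusted p = 0.00968, edgeR). In the fit of transcripts the same counts gave a log2 fold change of 0.73 with an adjusted p of 0.163 (edgeR, unadjusted 0.00203). The SE of Hr was 0.14 there, against 0.12 in the fit of genes. The biological coefficient of variation common to all features was 0.42 for transcripts and 0.106 for genes.

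**Figure D2:**
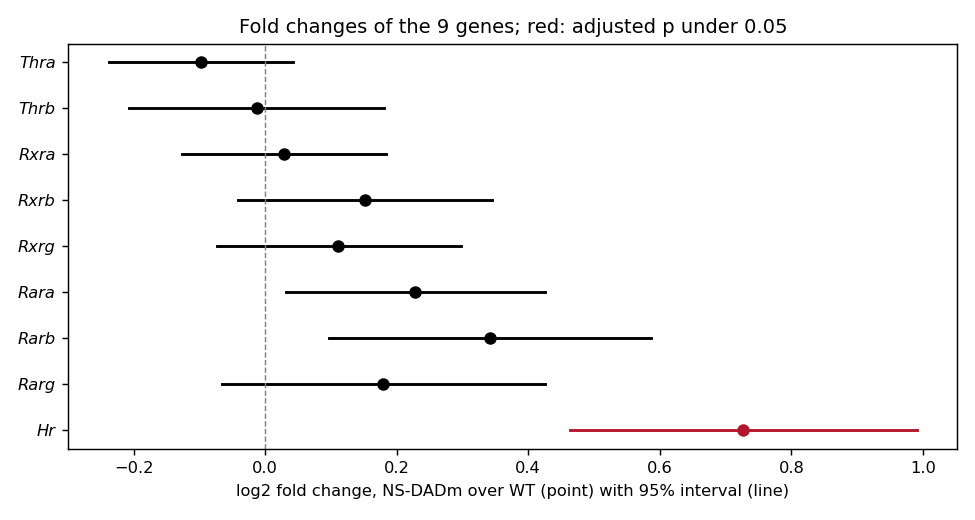
log2 fold change of each gene, NS-DADm over WT, from edgeR's quasi-likelihood fit of all genes; lines are 95% intervals and red marks an adjusted p under 0.05. The interval of Hr (0.46 to 0.99) and those of Rarb and Rara leave out 0, and those of the other 6 genes include it.

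Among the receptors for thyroid hormone, Thra makes alternative products that part near the end of the coding sequence. The α1 product binds T3, and the α2 product, which ends differently, does not. The coding sequence on both sides of that point is shown because it is what separates a receptor from a form that cannot bind the hormone. In GENCODE M21 (GRCm38, chr11, + strand) both variants share their coding sequence up to position 98764405. Variant α1 (NM_178060, 410 residues) runs on into the adjoining bases of the same exon, and α2 (NM_001313983, 492 residues) is spliced to an exon that starts at position 98768157. Capitals mark the bases after the shared part, and the lines cover coding bases 1081 to 1155 of each variant, the last shared one being 1110.
Thra alpha 1: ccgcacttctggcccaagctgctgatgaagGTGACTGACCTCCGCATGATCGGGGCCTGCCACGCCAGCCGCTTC
Thra alpha 2: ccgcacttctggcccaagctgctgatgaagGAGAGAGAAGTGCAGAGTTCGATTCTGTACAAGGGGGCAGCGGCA

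The last exon of α2 runs across the end of Nr1d1, the gene of the circadian repressor REV-ERBα, which is read from the other strand. Of the 2452 exonic bases of α2 in GENCODE M21, 263 (10.7%) are also exonic in Nr1d1, and 200 bases code for protein in both; α1 shares none. The first stretch that is coding in both genes, chr11:98768220-98768279, is shown as each gene reads it, since reads from it can belong to either.
Thra alpha 2: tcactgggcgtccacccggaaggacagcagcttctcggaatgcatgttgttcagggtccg
Nr1d1: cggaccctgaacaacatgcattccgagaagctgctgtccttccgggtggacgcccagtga
Whether the authors' counting used strand is not given in the sources used here, so reads of Thra α2 and Nr1d1 cannot be told apart there. Thra was also the only gene of the set whose gene-level counts were not whole numbers, in all 6 samples, and the same was true of Nr1d1. Nr1d1 itself had 54.4, 52.8 and 48.3 FPKM in NS-DADm, against 61.7, 58.5 and 36.3 FPKM in WT samples (adjusted p = 0.976, edgeR).

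**Figure D3:**
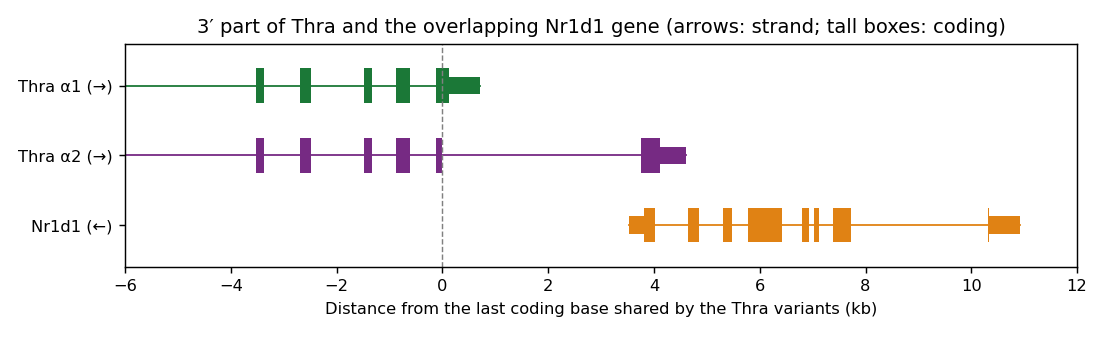
Exons of Thra α1, Thra α2 and Nr1d1 in GENCODE M21, as distance in kb from the last coding base that the Thra variants share (dashed line); tall boxes are coding, low boxes untranslated, and arrows give the strand. The final exon of α2 lies over the end of Nr1d1, with 263 bases exonic in both, and α1 ends before it.

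Thra (gene ID 21833), the main thyroid hormone receptor of heart muscle, had 36.95, 33.09 and 35.60 FPKM in NS-DADm samples, against 39.22, 37.21 and 38.27 FPKM in WT samples. The groups did not overlap, but the nearest samples were only a fraction of an FPKM apart. The means were 35.2 ± 1.96 FPKM in NS-DADm and 38.2 ± 1.01 FPKM in WT (SD, n = 3 each), and the log2 fold change of -0.10 (SE 0.06, 95% interval -0.24 to 0.04) had an adjusted p of 0.462 (edgeR). Variant α2 was at 22.85, 19.32 and 21.39 FPKM in NS-DADm, against 25.24, 22.15 and 24.20 FPKM in WT samples (log2 fold change -0.15, SE 0.08, adjusted p = 0.566 over all transcripts). Variant α1 was at 14.09, 13.77 and 14.21 FPKM in NS-DADm, against 13.98, 15.06 and 14.07 FPKM in WT samples (log2 fold change -0.01, SE 0.06, 95% interval -0.16 to 0.14, adjusted p = 0.977). The level of the form that binds the hormone was thus nearly equal in all 6 samples, and most of the uncalled difference in the mean of Thra lay in α2, the variant that overlaps Nr1d1.

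The share of Thra FPKM held by α2 was 61.9%, 58.4% and 60.1% in NS-DADm, against 64.4%, 59.5% and 63.2% in WT samples. The groups overlapped, with means of 60.1% ± 1.74 in NS-DADm and 62.4% ± 2.52 in WT, and the difference of -2.26 percentage points gave p = 0.3 in a two-sided exact permutation test, whose smallest possible p with 3 against 3 samples is 0.1. Thrb (gene ID 21834), the second receptor gene, had 5.33, 6.06 and 6.08 FPKM in NS-DADm, against 5.95, 5.56 and 6.41 FPKM in WT samples. These ranges overlapped in part (log2 fold change -0.01, SE 0.09, 95% interval -0.21 to 0.18, adjusted p = 0.959, edgeR). The Thrb table held a single transcript model, NM_001113417, of 461 residues. Thra therefore made up 85.8% ± 1.47 of the summed FPKM of the thyroid hormone receptors in NS-DADm and 86.5% ± 0.733 in WT, and the sum was 41.0 ± 1.66 FPKM in NS-DADm against 44.2 ± 1.27 FPKM in WT.

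**Figure D4:**
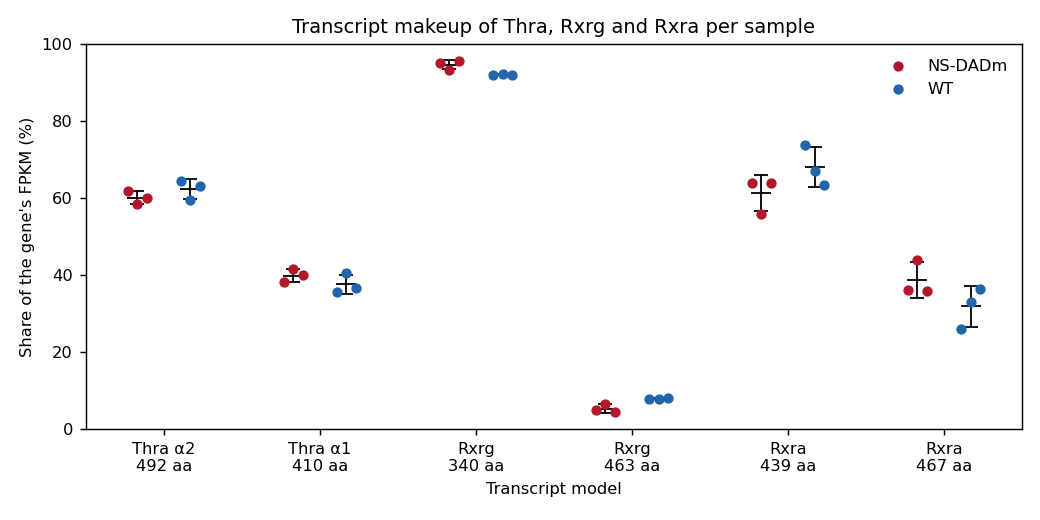
Share of a gene's FPKM held by each transcript model of Thra, Rxrg and Rxra per sample, with NS-DADm (red) left of WT (blue) and black marks for mean and SD of 3 samples; aa gives the residues of the encoded protein. Thra α2 holds 58.4% to 61.9% in NS-DADm and 59.5% to 64.4% in WT, and the groups are apart for Rxrg.

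Of the retinoid X receptors, the shared partners of the other receptors, Rxrg (gene ID 20183) had the highest level of all 9 genes in both groups. It had 50.08, 46.57 and 45.44 FPKM in NS-DADm, against 47.05, 46.33 and 39.54 FPKM in WT samples. The groups overlapped, WT 3 being the lowest (log2 fold change 0.11, SE 0.08, 95% interval -0.07 to 0.30, adjusted p = 0.53, edgeR). Most of it was the shorter model, NM_001159731 (340 residues), at 47.59, 43.48 and 43.39 FPKM in NS-DADm, against 43.31, 42.66 and 36.36 FPKM in WT samples (log2 fold change 0.16, SE 0.09, adjusted p = 0.579). The longer model, NM_009107 (463 residues), was at 2.49, 3.09 and 2.05 FPKM in NS-DADm, against 3.74, 3.67 and 3.18 FPKM in WT samples. Every NS-DADm sample lay below every WT sample for the longer model, though not beyond the spread of transcript estimates (log2 fold change -0.45, SE 0.23, adjusted p = 0.55).

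The shorter Rxrg model held 95.03%, 93.36% and 95.49% of Rxrg FPKM in NS-DADm, against 92.05%, 92.08% and 91.96% in WT samples. The WT shares were almost identical and all lay below the NS-DADm shares. The difference was 2.6 percentage points, with p = 0.1 in the two-sided exact permutation test, the smallest value 3 against 3 samples can give. Shares were tested for Thra, Rxra, Rxrg and Rarg, and no adjustment over them could bring such a p under 0.05.

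Rxra (gene ID 20181), the retinoid X receptor that the developing heart needs, had 18.70, 17.83 and 20.21 FPKM in NS-DADm, against 17.79, 19.82 and 19.04 FPKM in WT samples. The groups lay on top of each other (log2 fold change 0.03, SE 0.07, 95% interval -0.13 to 0.18, adjusted p = 0.88, edgeR). Its model NM_001290481 (439 residues) held 61.3% ± 4.62 of Rxra FPKM in NS-DADm and 68.1% ± 5.27 in WT (two-sided exact permutation p = 0.3), and NM_011305 (467 residues) the rest. Rxrb (gene ID 20182), the widely expressed member, had 19.59, 22.02 and 22.04 FPKM in NS-DADm, against 19.33, 20.63 and 17.82 FPKM in WT samples. Its groups overlapped, with WT 3 lowest (log2 fold change 0.15, SE 0.09, 95% interval -0.04 to 0.35, adjusted p = 0.398). Its most abundant model, NM_011306 (520 residues), averaged 9.43 ± 2.48 FPKM in NS-DADm and 9.93 ± 1.02 FPKM in WT. The summed FPKM of the 3 retinoid X receptors was 87.5 ± 0.99 in NS-DADm and 82.5 ± 5.4 in WT, of which Rxrg was 54.1% ± 2.43 in NS-DADm and 53.7% ± 2.09 in WT.

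All 3 retinoic acid receptors had positive fold changes, and none passed the test. Rarb (gene ID 218772), itself a well-known gene induced by retinoic acid, is described with its promoter because that induction runs through a repeated receptor element. The 100 bases before its start in RefSeq (GRCm38.p6, chr14:16575477-16575576, - strand) are given 5′ to 3′, with the repeated hexamers in capitals.
Rarb promoter: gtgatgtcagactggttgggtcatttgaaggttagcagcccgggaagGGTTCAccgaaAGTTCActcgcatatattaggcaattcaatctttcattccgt
The hexamers lie on the strand of the gene with 5 bases between them. The search covered the consensus hexamer AGGTCA, the variants seen in the Rarb promoter (AGTTCA as well as GGTTCA) and the further variant GGGTCA, any of them followed by any other or by itself in the same direction with 1, 2, 4 or 5 bases between them, on both strands. Such a repeat was found in 218 of 32851 RefSeq promoter windows (0.664%), and with a spacing of 5 in 32 (0.0974%). The windows start 250 bases before a gene's start and end 50 bases after it. Of the 15 windows found for 7 of the 9 genes, the Rarb window was the one with a repeat. The hexamers and spacings searched include those of the Rarb element, so its match was fixed in advance and is no finding about Rarb. Thra and Hr had no window.

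Rarb had 9.70, 9.59 and 11.06 FPKM in NS-DADm, against 7.21, 7.75 and 9.54 FPKM in WT samples. All NS-DADm samples were above all WT samples, though WT 3 came within a small margin of NS-DADm 2. The means were 10.1 ± 0.819 FPKM in NS-DADm and 8.17 ± 1.22 FPKM in WT (SD, n = 3 each), with a log2 fold change of 0.34 (SE 0.11, 95% interval 0.10 to 0.59) and an adjusted p of 0.132 (edgeR; unadjusted 0.0109). WT 3, the highest WT sample for Rarb, was also the WT library with high atrial transcripts. Among low-atrial libraries the log2 ratio of Rarb was 0.36, and among high-atrial libraries 0.12. The main Rarb model, NM_011243 (448 residues), averaged 8.27 ± 2.46 FPKM in NS-DADm and 6.20 ± 0.666 FPKM in WT, and the other, NM_001289762, was 0 in NS-DADm 3 and present in the other 5 samples. Both models match the same GENCODE protein, and the split of reads between such near-identical models is uncertain.

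Rara (gene ID 19401), the broadly expressed retinoic acid receptor, had 6.36, 5.88 and 6.34 FPKM in NS-DADm, against 5.76, 5.03 and 5.21 FPKM in WT samples. The groups were apart by a small margin, between NS-DADm 2 and WT 1. The log2 fold change was 0.23 (SE 0.09, 95% interval 0.03 to 0.43, unadjusted p = 0.027, adjusted p = 0.207, edgeR). Rarg (gene ID 19411), the most abundant retinoic acid receptor here, had 14.03, 14.81 and 13.31 FPKM in NS-DADm, against 12.07, 10.90 and 14.86 FPKM in WT samples. WT 3 was the highest of the 6 samples, so the groups overlapped (log2 fold change 0.18, SE 0.11, 95% interval -0.07 to 0.43, adjusted p = 0.433). The sign of the Rarg difference depended on the library set, with a log2 ratio of 0.37 among low-atrial and -0.12 among high-atrial libraries.

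The summed FPKM of the retinoic acid receptors was 30.09, 30.28 and 30.71 in NS-DADm, against 25.04, 23.68 and 29.61 in WT samples. The NS-DADm sums were nearly equal, the WT sums were spread, and WT 3 came close to the NS-DADm level. Within the sum, Rarg held 46.3% ± 2.80 in NS-DADm and 48.1% ± 2.08 in WT, and the Rarg model NM_001042727 (447 residues) held 80.3% ± 2.03 of Rarg FPKM in NS-DADm and 79.6% ± 1.19 in WT (two-sided exact permutation p = 0.6). The most abundant Rara model, NM_009024 (462 residues), averaged 2.96 ± 2.14 FPKM in NS-DADm and 3.54 ± 0.301 FPKM in WT, and another, NM_001177303, was 0 in NS-DADm 2 and in WT 3.

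The order of levels was the same in both groups over the upper 6 genes. Rxrg led, then came Thra, then Rxrb and Rxra, whose ranges overlapped, then Rarg, then Rarb. Below them NS-DADm samples had Hr (mean 8.90 FPKM), whose range overlapped that of Rarb through NS-DADm 3 only, followed by Rara and Thrb, whose ranges overlapped. In WT samples Thrb (5.97 FPKM), Hr (5.46 FPKM) and Rara (5.33 FPKM) overlapped with their neighbours. Hr was thus level with the least abundant receptors in WT myocardium, and in NS-DADm myocardium its lowest sample (8.07 FPKM) was above the highest Rara sample (6.36 FPKM).

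The genes that supply thyroid hormone to its receptors included no call. Of 12 genes of hormone transport and metabolism, 8 were tested, and 0 rose or fell in edgeR, with a median log2 fold change of 0.29. Over all tested genes that median was -0.003, with 1.79% rising and 1.41% falling. This list and the lists below were chosen with earlier results of these data known. Sult1a1, a sulfotransferase, averaged 28.5 ± 2.68 FPKM in NS-DADm and 36.9 ± 6.15 FPKM in WT (adjusted p = 0.152). Slc3a2, the heavy chain of amino acid transporters that also carry thyroid hormone, averaged 24.0 ± 1.30 FPKM in NS-DADm and 21.9 ± 2.59 FPKM in WT (adjusted p = 0.414), and the transporter Slc16a10 7.53 ± 0.881 FPKM in NS-DADm and 8.20 ± 0.682 FPKM in WT (adjusted p = 0.489). Dio2, the deiodinase that makes T3, was low at 0.38, 0.25 and 1.88 FPKM in NS-DADm, against 0.29, 0.23 and 0.18 FPKM in WT samples (adjusted p = 0.197). It was named after its values were seen, because NS-DADm 3 stood apart, and that library also had the highest sum of adipocyte markers (210 FPKM, against 2.45 to 61.3 FPKM in the other 5); the part of the adipocyte markers in the Dio2 value was not tested.

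Of 15 genes known to be induced by T3 in heart or other tissues, Hr included, 3 rose and 1 fell, with a median log2 fold change of 0.05. Of all tested genes, 1.79% rose and 1.41% fell. Besides Hr, the A-type potassium channel gene Kcnd2 rose (11.99 ± 1.69 FPKM in NS-DADm against 8.41 ± 0.352 FPKM in WT, adjusted p = 0.0298), as did the mitochondrial carrier Ucp2 (137 ± 26.7 FPKM in NS-DADm against 72.8 ± 23.1 FPKM in WT, adjusted p = 0.0315). The pacemaker channel gene Hcn2 fell to 2.76 ± 0.461 FPKM in NS-DADm, against 9.41 ± 0.826 FPKM in WT (log2 fold change -1.75, SE 0.12, adjusted p = 7.4e-05). Of the most abundant members not called, Myh6 averaged 6224 ± 272 FPKM in NS-DADm and 5546 ± 403 FPKM in WT (adjusted p = 0.202), the calcium pump Atp2a2 3713 ± 202 FPKM in NS-DADm and 3800 ± 135 FPKM in WT (adjusted p = 0.953), and Rcan2, an inhibitor of calcineurin, 235 ± 12.5 FPKM in NS-DADm and 220 ± 9.15 FPKM in WT (adjusted p = 0.378). The genes called in this list thus went in both directions. Kcnd2 was not called when any 1 library other than NS-DADm 3 was left out (highest adjusted p 0.111), nor Ucp2 when WT 1, WT 2 or either of NS-DADm 1 and 3 was (0.119), while Hcn2 stayed called (0.00181). With limma on log2(FPKM + 1) neither Kcnd2 (adjusted p = 0.0644) nor Ucp2 (0.0715) was called.

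Of 7 genes known to be repressed by T3 in heart, 2 fell (1.41% of all tested genes did) and 0 rose, with a median log2 fold change of -0.10. The potassium channel gene Kcna4 had 0.14, 0.10 and 0.07 FPKM in NS-DADm, against 0.49, 0.49 and 0.50 FPKM in WT samples (adjusted p = 0.00724, edgeR), which is a low level in both groups. The adenylyl cyclase Adcy5 averaged 12.3 ± 0.381 FPKM in NS-DADm and 19.5 ± 2.03 FPKM in WT (adjusted p = 0.00259). Myh7 had 61.25, 28.98 and 57.05 FPKM in NS-DADm, against 23.68, 32.08 and 33.20 FPKM in WT samples (adjusted p = 0.119). It was called when NS-DADm 2 was left out. The high values were those of NS-DADm 1 and 3, which had high atrial transcripts. WT 3, also high in atrial transcripts, was at 33.20 FPKM, near the low-atrial WT 2. The part of atrial transcripts in the Myh7 values was not tested. Phospholamban, Pln, averaged 3639 ± 297 FPKM in NS-DADm and 3802 ± 321 FPKM in WT (adjusted p = 0.865), and Adcy6 46.2 ± 1.38 FPKM in NS-DADm and 45.8 ± 7.12 FPKM in WT (adjusted p = 0.887). Thra, also a member of this list, is described above.

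Among 16 genes of retinoid transport and metabolism, 8 were tested, 1 rose (1.79% of all tested genes did) and 0 fell, with a median log2 fold change of 0.13. The gene that rose was Dhrs3, which reduces retinaldehyde to retinol and is itself induced by retinoic acid. It had 78.53, 85.55 and 82.17 FPKM in NS-DADm, against 53.12, 63.64 and 67.65 FPKM in WT samples. All NS-DADm samples were well above all WT samples (log2 fold change 0.41, SE 0.10, adjusted p = 0.049, edgeR), but the adjusted p was close to the threshold. It went past it when any 1 library other than WT 3 was left out (highest adjusted p 0.147), with the atrial score as a covariate (0.059), and with limma on log2(FPKM + 1) and log2(FPKM + 0.1) (0.0576 and 0.0584). The enzymes that make retinoic acid were not called: Aldh1a1 averaged 13.8 ± 2.88 FPKM in NS-DADm and 15.0 ± 6.23 FPKM in WT (adjusted p = 0.87), and Aldh1a2 3.47 ± 0.444 FPKM in NS-DADm and 2.84 ± 0.58 FPKM in WT (adjusted p = 0.417).

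Of 10 genes known to respond to retinoic acid, 5 were tested, all with positive fold changes (median log2 0.18), and 1 rose, again Dhrs3. Of all tested genes, 49.3% had positive fold changes and 1.79% rose. The others included Rarb, given above, Tgm2, a transglutaminase, with 109 ± 4.75 FPKM in NS-DADm and 98.8 ± 16.0 FPKM in WT (adjusted p = 0.433), and Cyp26b1, which degrades retinoic acid. Cyp26a1, another enzyme that degrades retinoic acid, was too low to be tested.

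Of 11 other heterodimer partners of the retinoid X receptors, 8 were tested, 3 rose and 0 fell, with a median log2 fold change of 0.34. Of all tested genes, 1.79% rose, and the median was -0.003. The partners were listed with earlier results of these data known, so these counts are a description. The fatty acid receptor Ppara averaged 25.3 ± 1.83 FPKM in NS-DADm and 19.2 ± 1.27 FPKM in WT (adjusted p = 0.0191, edgeR), and Ppard, a related receptor, 19.0 ± 0.702 FPKM in NS-DADm and 15.6 ± 1.00 FPKM in WT (adjusted p = 0.0483). The early response receptor Nr4a1 averaged 23.1 ± 6.52 FPKM in NS-DADm and 8.68 ± 0.996 FPKM in WT (adjusted p = 0.00511). Pparg averaged 10.2 ± 0.812 FPKM in NS-DADm and 7.70 ± 0.274 FPKM in WT (adjusted p = 0.0566), and the liver X receptors Nr1h2 and Nr1h3 had adjusted p-values of 0.915 and 0.441. Leaving out WT 1, WT 2 or either of NS-DADm 1 and 2 ended the call of Ppara (highest adjusted p 0.103), leaving out any of the 6 libraries that of Ppard (0.197), and none that of Nr4a1 (0.0397). Ppard was also not called with limma on log2(FPKM + 1) (adjusted p = 0.0903) or with the atrial score as a covariate (0.0869).

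Of 13 coregulators of these receptors, 1 rose (1.79% of all tested genes did) and 0 fell, with a median log2 fold change of 0.07. Tbl1xr1, a WD-repeat subunit of NCOR complexes, averaged 12.2 ± 0.762 FPKM in NS-DADm and 6.80 ± 0.267 FPKM in WT (log2 fold change 0.87, SE 0.07, adjusted p = 0.000164, edgeR; up to 0.0034 with 1 library left out). Hdac3 averaged 29.8 ± 0.804 FPKM in NS-DADm and 29.8 ± 2.02 FPKM in WT (adjusted p = 0.884), and the subunit Gps2 28.1 ± 1.76 FPKM in NS-DADm and 26.5 ± 0.286 FPKM in WT (adjusted p = 0.493). The enzyme and most of its partners were thus at similar RNA levels in the groups.

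**Figure D5:**
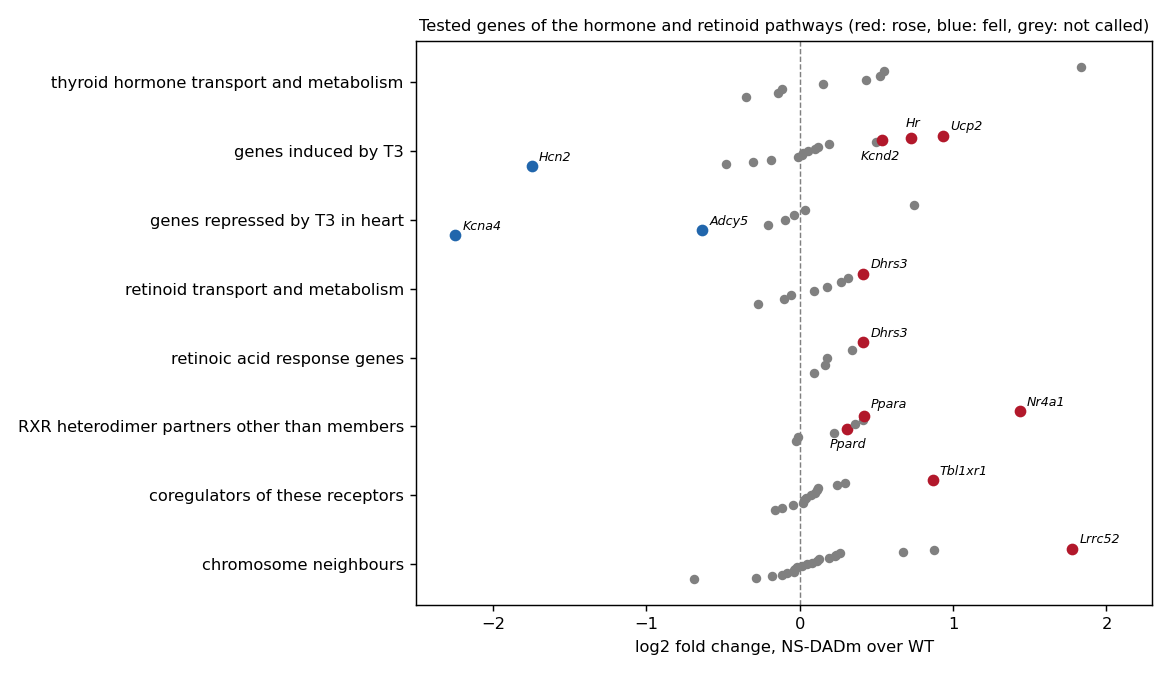
log2 fold change, NS-DADm over WT, of each tested gene in the lists of hormone and retinoid genes and of chromosome neighbours; each point is 1 gene, red and blue points had an adjusted p under 0.05 in edgeR. The called genes range from Kcna4 at -2.25 to Lrrc52 at 1.78.

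Several of the 9 genes lie beside one another or beside other nuclear receptor genes in the RefSeq gene order. Rarb and Thrb adjoin each other on chromosome 14, with Nr1d2, the gene of REV-ERBβ, close by, and Thra lies between Med24 and Nr1d1 on chromosome 11, which also holds Rara. Of 22 neighbours, 21 were tested, 1 rose (1.79% of all tested genes did) and 0 fell, with a median log2 fold change of 0.05. The gene that rose was Lrrc52, an auxiliary subunit of a potassium channel, which adjoins Rxrg on chromosome 1. It had 5.65, 8.65 and 4.60 FPKM in NS-DADm, against 1.11, 2.07 and 2.43 FPKM in WT samples (log2 fold change 1.78, SE 0.33, adjusted p = 0.0191, edgeR; 0.0801 at most when WT 1, WT 2 or NS-DADm 1 was left out, each of which ended the call). Rxrg, at many times that level, was not called. Of the most abundant neighbours, Mgst3, a glutathione transferase also near Rxrg, averaged 362 ± 9.07 FPKM in NS-DADm and 451 ± 47.6 FPKM in WT (adjusted p = 0.0825), the ribosomal protein gene Rpl15 171 ± 3.62 FPKM in NS-DADm and 165 ± 13.4 FPKM in WT (adjusted p = 0.61), and Igfbp4 78.3 ± 20.9 FPKM in NS-DADm and 66.1 ± 15.5 FPKM in WT (adjusted p = 0.519).

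Some markers of other cells also moved with the groups, and their part in the values of Hr and of the retinoic acid receptors was not tested. All 5 macrophage markers (Adgre1, Csf1r, Cd68, C1qa and Mrc1) were higher in every NS-DADm sample than in any WT sample, as were 8.94% of all tested genes. The markers summed to 120 to 129 FPKM in NS-DADm against 88.8 to 96.9 FPKM in WT. In edgeR Csf1r (adjusted p = 0.0195) and C1qa (adjusted p = 0.00405) rose. Adgre1 (adjusted p = 0.159), Cd68 (0.119) and Mrc1 (0.196) were not called. Csf1r was not called when WT 1, WT 2 or either of NS-DADm 1 and 2 was left out (highest adjusted p 0.0961). None of the markers was at 0. The 5 mural cell markers summed to 228 to 263 FPKM in NS-DADm and 286 to 316 FPKM in WT, and 0 of 5 were called by edgeR. Most of that sum was Rgs5 (167 ± 14.6 FPKM in NS-DADm against 214 ± 16.4 FPKM in WT). Sample ranges were separate for 3 of the 5 (Rgs5, Pdgfrb and Kcnj8), with NS-DADm below WT, and in either direction for 23.4% of all tested genes. Myh11 went the other way (log2 fold change 0.49), and Acta2 was nearly flat (-0.02). Endothelial markers summed to 190 to 203 FPKM in NS-DADm against 184 to 204 FPKM in WT, and fibroblast markers to 446 to 545 FPKM in NS-DADm against 462 to 550 FPKM in WT. The 5 Schwann cell markers summed to 4.66 to 7.12 FPKM in NS-DADm against 7.40 to 8.58 FPKM in WT, with 4 tested, all with negative fold changes (median log2 -0.47) and 0 called by edgeR. The 5 epicardial markers summed to 3.33 to 15.9 FPKM in NS-DADm against 1.72 to 3.99 FPKM in WT, highest in NS-DADm 3; 3 were tested (median log2 2.03), 0 were called, and all but Wt1 were at 0 in WT 2. Skeletal muscle markers summed to at most 3.10 FPKM in NS-DADm and 1.81 FPKM in WT, and none was tested.

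Genes whose levels followed the same sample order were sought for the 3 members with the smallest p, by Pearson's r of log2 CPM over the 6 samples among 11124 genes, as a description. The samples share their grouping, and it enters these values because the 3 members were picked by their p between the groups. The NS-DADm libraries were also deeper, but CPM is scaled by library size. For Hr the nearest included the mitotic spindle gene Haus1 (r = 0.986) and Fcna (0.986), a lectin made by macrophages, and 59 genes were above 0.95. Fcna had 7.75, 5.28 and 7.37 FPKM in NS-DADm, against 2.62, 1.82 and 1.28 FPKM in WT samples. For Rarb they were Vsir (0.998), an immune checkpoint receptor, Emc1 (0.991), a subunit of a membrane insertase, and Ppfibp1 (0.991), with 53 genes above 0.95. For Rara they were Fyb (0.994), an adaptor of immune cells, Tsc22d4 (0.994) and Folr2 (0.992), a folate receptor of resident macrophages, with 64 genes above 0.95. Folr2 had 20.38, 19.04 and 19.94 FPKM in NS-DADm, against 15.01, 10.59 and 10.75 FPKM in WT samples.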

How the data were processed

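The deposited files give, for each sample, expected counts and FPKM per gene and per transcript. Per the file headers, the authors' expected count is the number of reads estimated for a feature, and it was not whole for 10.8% to 11.6% of genes. FPKM values were deposited by the authors, scaled by feature length and library size per the file headers. HISAT is named in the submitters' processing notes; no source used here gives the estimator, strand setting, build or annotation. Listed genes had an FPKM of at least 0.01, and a gene missing from a sample counted as 0. The 1 row without a symbol was left out (at most 3.2e-04% of counts). No 2 libraries were duplicates.

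Expected counts were rounded. edgeR 4.0.16 (R 4.3.3) with filterByExpr, TMM and the quasi-likelihood test was fitted to all 6 samples without covariates, for genes and, separately, transcripts, and p-values were adjusted by Benjamini-Hochberg over all tested features, with 0.05 as the threshold. Intervals cover 95%. Alternatives were DESeq2 1.42.0, limma 3.58.1 on log2(FPKM + 1) and log2(FPKM + 0.1), other scaling and filters, a replicate block, an atrial score as a covariate and leaving out each sample; separate fits of the low-atrial and the high-atrial libraries were chosen after seeing the data. The genes and lists were chosen with earlier results of these data known. Every member is named, with list genes that passed, up to 3 of each list that did not with the highest mean FPKM, each Thra transcript and the leading transcript of the other genes; for likeness, 3 genes for each of the 3 members with the smallest p. Cyp26b1, Nr1d1, Dio2 and Cyp26a1 are named beyond this rule, and a few genes that the rule takes are not reported here. Sequences are from GENCODE M21 (GRCm38), by RefSeq accession, and RefSeq promoter windows (GRCm38.p6).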

Additional observations from a re-analysis of the deposited data

How the results depend on the processing

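Hr was called in 14 of 16 alternatives, with log2 fold changes of 0.49 to 1.05 and adjusted p-values of 5.8e-06 to 0.59; it was not called within high-atrial libraries (log2 1.05, adjusted p = 0.59) or without WT 2 (0.74, adjusted p = 0.0593). Thra, Rxra, Rxrb, Rxrg, Rara and Thrb were called in none of 16. The log2 fold changes of Thrb (-0.14 to 0.11), Rxra (-0.03 to 0.07) and Rarg (-0.09 to 0.41) changed sign among them. Within low-atrial libraries 2 of the 9 genes (Hr and Rarg) and 979 of all genes were called, and within high-atrial libraries 0 of the 9, 0 of all genes and 0 of the genes in the lists (main count 10); each set compares 1 sample with 2, which assumes that the lone sample varies like the others. limma called 267 genes with a pseudocount of 0.1 and 272 with 1, and 6 list genes with each, without Dhrs3, Kcnd2, Ppard and Ucp2; the atrial covariate left out Dhrs3 and Ppard (8 list genes). Leaving out each sample in turn gave 117 to 382 called genes, 0 to 1 of the 9, and 5 to 8 list genes; Hr ranged over log2 0.61 to 0.84.

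With the replicate number as a block, 895 genes and 2 of the 9 (Hr and Rarb, Rarb at log2 0.35, adjusted p = 0.034) were called. The labels state no pairing, and deviations of same-numbered samples correlated at -0.07, 0.33 and 0.40. NS-DADm 2 and 3 matched the WT sample of their own number best, and NS-DADm 1 matched WT 3 best. Whether same-numbered samples share more than a number cannot be told from these values. The causes of these shifts were not tested. No value changed sign past a threshold. With 3 samples a group and counts of 161 to 1263 for a gene, the 95% intervals of the receptors reach from log2 -0.24 to 0.59. Those of Rara and Rarb leave out 0. Where an interval includes 0, no difference was shown, and a difference of any size within that interval remains possible. The α2 share of Thra by counts differed by -2.23 points.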
